A study of Rattus norvegicus with 8 samples.

Results

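The kidneys of 4 control rats were examined for the miRNAs that they held and for how far these differed from one animal to the next. The control kidneys were 4 of the 8 kidneys sequenced in the study, in which the other 4 rats received aristolochic acid. Only the columns of the control rats were used, and the treated rats were not analysed here. The table lists 620 rat miRNAs, and the 321 miRNAs with at least 10 counts in each of the 4 control kidneys (51.8% of those listed) are described. The 620 include 61 entries with a lower-case mir name and no settled sequence, and 7 of these are among the 321. The rats were male Fisher 344 rats carrying the Big Blue transgene, a reporter inserted for the measurement of mutations. They were 6 weeks old at the first gavage, received a 0.9% solution of sodium chloride 5 times a week and were 18 weeks old when the kidneys were taken. The labels give 12, 13, 14 and 15 weeks of treatment for rats 1, 2, 3 and 4, whereas the methods of the study give 12 weeks for every rat, which is the difference between the ages in the labels. Each kidney gave 1 small RNA library, made from a piece of minced tissue, so that the values describe the organ as a mixture of its cell types. In such tissue, fewer cells of a type and less of a miRNA per cell cannot be told apart.

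The libraries held 13736874 to 15525397 counts on miRNAs, so that 10 counts correspond to 0.644 to 0.728 RPM. All levels below are RPM, the counts of a miRNA divided by the total over the 620 miRNAs of its library and multiplied by 1000000. Between 506 and 514 miRNAs had at least 1 count in a given kidney, 47 had none in any of the 4, and the 321 miRNAs described took 99.99% of the reads. No library repeated another, since the chi-square between libraries was 393.9 to 606.8 per degree of freedom among rats 1 to 3 and 1481 to 2156 between rat 4 and each of the others, where counting noise alone gives about 1. The kidney of rat 4 stood apart. Across the 321 miRNAs, 30 differed by more than 2-fold between rat 4 and the geometric mean of the other 3 rats, compared with 7, 8 and 1 for rats 1, 2 and 3. Among the 211 miRNAs with at least 100 counts in each kidney, 12 did so for rat 4, and the other rats were not counted at that limit. Several of the main results that rest on this kidney are therefore given without it too. The number of neighbouring pairs that kept their order of abundance is given for all 4 kidneys only.

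miRNAs are short RNAs cut from a hairpin, which gives one product from its 5′ side and one from its 3′ side, the arms. One arm is usually loaded into the silencing complex and the other is degraded, and the names used here mark the arm held to be the minor one with a star. Bases 2 to 8 of the loaded arm, the seed, pair with target messages, so that miRNAs with one seed are counted as a family. In kidney, miR-192, miR-194, miR-204, miR-215 and the miR-30 family are known from the tubules, the miR-200 family from epithelium in general, miR-143 and miR-145 from smooth muscle of vessels, and miR-126 from endothelium.

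The mature sequences of the most abundant miRNAs with a RefSeq entry are shown 5′ to 3′ with the seed in capitals. That of let-7a, which took fewer reads, is added for comparison with let-7f. The sequences are shown since a small number of seeds carried most of the kidney's miRNA. They were taken from RefSeq (GRCr8), to which 280 of the 321 miRNAs, with 96.9% ± 0.19 (SD, n = 4) of the reads, were matched, 50 by their exact name and 230 through a hand-written table of arms.
miR-378: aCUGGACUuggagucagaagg
miR-143: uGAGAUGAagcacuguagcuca
miR-30a: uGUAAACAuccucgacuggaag
miR-30e: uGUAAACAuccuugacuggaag
miR-30c: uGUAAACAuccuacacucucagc
miR-10a-5p: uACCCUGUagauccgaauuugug
miR-192: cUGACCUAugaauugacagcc
miR-21: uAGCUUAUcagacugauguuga
let-7f: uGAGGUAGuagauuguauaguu
let-7a: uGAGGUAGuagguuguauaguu
miR-101a: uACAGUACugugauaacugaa
miR-101b: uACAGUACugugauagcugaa
miR-103: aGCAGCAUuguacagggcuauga
miR-140*: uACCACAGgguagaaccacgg

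The genomic positions are those of GRCr8, since the build behind the counts is not given in the sources used here. The mature miR-378 lies at chr18:57128925-57128945 on the minus strand, within the span of Ppargc1b, a coactivator gene of mitochondrial metabolism. miR-143 lies at chr18:57371373-57371394 on the minus strand, within the long noncoding RNA gene Carmn. miR-30e (chr5:139637504-139637525) and one of the copies of miR-30c (chr5:139634505-139634527) lie on the minus strand within Nfyc, which encodes a subunit of a transcription factor. miR-140* lies at chr19:52375353-52375373 on the plus strand within Wwp2, a ubiquitin ligase gene. miR-30a (chr9:33233946-33233967, plus), miR-10a-5p (chr10:81779730-81779752, plus), miR-192 (chr1:212994232-212994252, plus) and miR-21 (chr10:71902653-71902674, minus) lie in no annotated span of a protein-coding or long noncoding RNA gene. The annotation used here gives gene spans without exons or strand, so whether a miRNA lies in an exon or an intron was not determined.

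The rat kidney's reads were concentrated in 3 miRNAs. miR-378, miR-143 and miR-30a were ranked 1, 2 and 3 in 4 of 4 kidneys and together took 55.7%, 60.1%, 53.6% and 58.2% of the reads (mean 56.9% ± 2.87, SD, n = 4). Just 3 miRNAs were needed to reach 50% of the reads of each kidney, 17 to 19 to reach 90% and 78 to 82 to reach 99%. The 10 most abundant miRNAs of each kidney took 82.4% ± 0.90 and the 20 most abundant 91.5% ± 0.59 (SD, n = 4). The same 20 miRNAs made up the top 20 of every kidney, and 8 miRNAs were in the top 10 of all 4. At the other end, 109 miRNAs had a mean of at least 100 RPM, 43 of at least 1000 RPM and 13 of at least 10000 RPM.

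**Figure D1:**
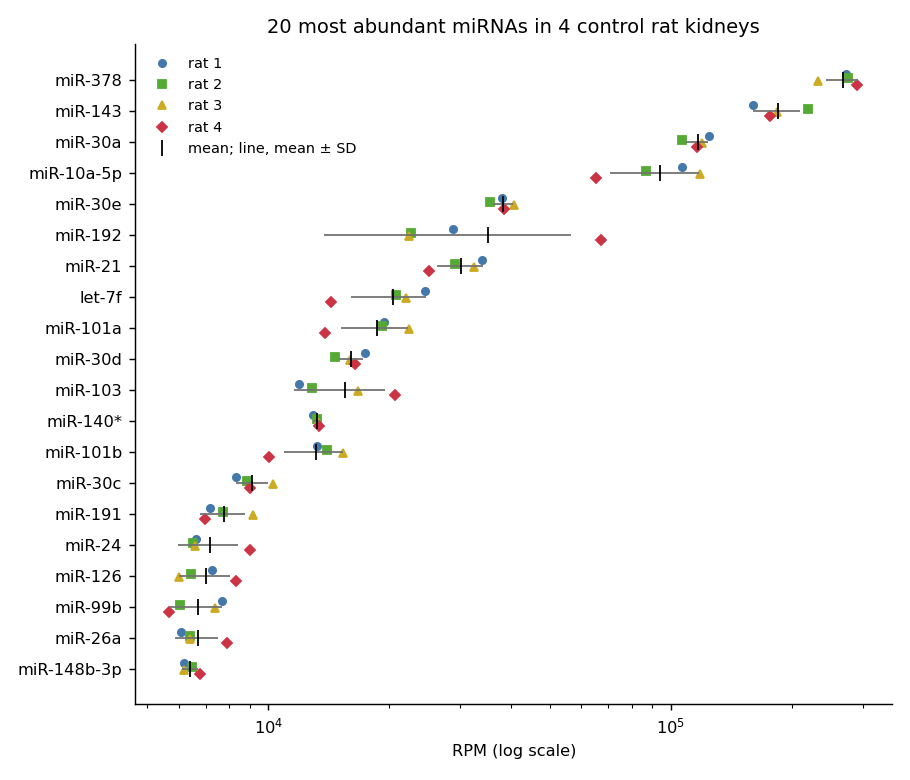
RPM (log scale) of the 20 most abundant miRNAs, with one symbol per rat, a tick at the mean and a line for the mean ± SD (n = 4). miR-378 reached a mean of 267548 RPM and the twentieth, miR-148b-3p, 6393 RPM, and the diamond of rat 4 lies far to the right for miR-192 and to the left for miR-10a-5p and let-7f.

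miR-378, which is known from metabolically active tissue, was the most abundant miRNA at 272728, 275269, 232671 and 289523 RPM in rats 1 to 4 (mean 267548 ± 24398, SD, n = 4). miR-143, of the vessel wall, followed at 160525, 219178, 183234 and 176881 RPM. miR-30a, the leading member of a family known from tubule and podocyte, was at 124218, 106820, 119713 and 116051 RPM. The 4 kidneys did not overlap between any of these 3 miRNAs, and the widest ratio of the highest to the lowest kidney among them was 1.37, for miR-143.

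miR-10a-5p, encoded in the HoxB cluster, reached 106411, 86582, 118345 and 65198 RPM. The lowest value was in rat 4. miR-30e stood at 38131, 35592, 40838 and 38606 RPM, with a coefficient of variation (CV, the SD over the mean) of 5.62%. miR-192, a product of the tubule epithelium, was the least even of the 20, at 28686, 22559, 22340 and 66986 RPM. Its CV over 4 kidneys was 60.98%, and 14.7% without rat 4, in which it was 2.73 times the mean of the other 3 kidneys.

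miR-21, which is best known for its rise in injured and neoplastic tissue, was at 33926, 29092, 32461 and 25108 RPM in these control kidneys. let-7f, the leading member of the let-7 family of differentiation-associated miRNAs, was at 24446, 20714, 22044 and 14335 RPM. Rat 4 was the lowest kidney for both. miR-101a (13835 to 22327 RPM) and miR-101b (10050 to 15290 RPM) were also lowest in rat 4, whereas miR-103, one copy of which lies within the span of Pank2, a kinase gene of coenzyme A synthesis, was highest there (11942, 12862, 16723 and 20651 RPM). miR-30d ranged from 14655 to 17379 RPM.

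miR-140* stood at 12922, 13218, 13303 and 13335 RPM, the lowest CV of the 20 on this scale, 1.43%. That value depended on the scaling. After median-of-ratios or TMM scaling, which set each library by the typical miRNA in place of the total of reads, its CV was 6.38% or 10.1%. The remaining 7 of the 20 were miR-30c (mean 9124 RPM), miR-191 (7758 RPM), miR-24 (7172 RPM), the endothelial miR-126 (7006 RPM), miR-99b (6694 RPM), miR-26a (6675 RPM) and miR-148b-3p (6393 RPM), with CVs between 4.46% and 17.0%.

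The order of the 20 miRNAs was the same in every kidney for only some neighbours. For the 20 pairs of neighbours, from miR-378 over miR-143 down to miR-148b-3p over miR-152, the order of the means held in 4 of 4 kidneys for 8 pairs and not for 12. An exact two-sided permutation test that flips the sign of the log2 ratio of each rat cannot give a p below 0.13 with 4 rats, so no pair can pass 0.05. The pairs were also ordered by the means of the same kidneys, so the counts and ratios are a description. miR-378 over miR-143 (mean log2 ratio 0.54 ± 0.23, SD, n = 4), miR-143 over miR-30a (0.66 ± 0.28) and miR-10a-5p over miR-30e (1.26 ± 0.36) held in every kidney. miR-192 over miR-21 held in rat 4 alone (0.07 ± 0.91), and miR-140* and miR-101b changed places between kidneys (0.02 ± 0.27). The log2 ratios for miR-99b over miR-26a lay between -0.47 and 0.34. Neighbours such as miR-103 (23 bases) and miR-140* (21 bases) differ in length, and ligation of adaptors is known to favour some ends. The part of length and ligation in the order was not tested.

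Grouping by seed placed the members of 223 families, and 36 families had at least 2 members, 93 miRNAs in all. The 10 largest families took 87.6%, 87.8%, 86.7% and 87.2% of the reads of rats 1 to 4 (mean 87.3% ± 0.50, SD, n = 4). miR-378 (26.8% ± 2.44) and miR-143 (18.5% ± 2.47) each formed a family with a single listed member. The third family was that of miR-30a, miR-30e and miR-30c, all with the seed GUAAACA shown above, at 16.4% ± 0.92 of the reads, and miR-30a made up 71.1% of it. miR-30d and miR-30b-5p carry the family name but no sequence in the table used here. With them, grouped by name, the miR-30 family took 18.9%, 16.8%, 18.9% and 18.2% of the reads, a mean that differed from that of miR-143 by less than the SD between the kidneys. The share of miR-143 was 16.1%, 21.9%, 18.3% and 17.7%, below that of the miR-30 family in every kidney except that of rat 2.

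**Figure D2:**
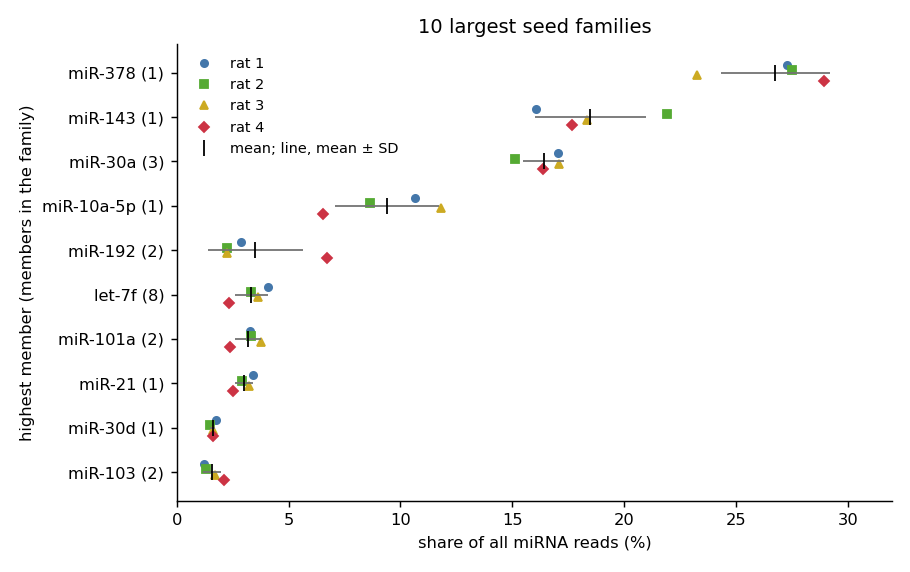
Share of all miRNA reads (%) taken by the 10 largest seed families, labelled by their most abundant member with the number of members in parentheses, with one symbol per rat, a tick at the mean and a line for the mean ± SD (n = 4). The 3 largest families lie between 15.1% and 29.0% in every kidney, and the miR-192 family reaches 6.70% in rat 4 against 2.24% to 2.87% in the others.

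miR-10a-5p was the fourth family, with 9.41% ± 2.33 of the reads. Its relative miR-10b, from the HoxD cluster within Hoxd4, is listed by RefSeq from the third base of the sequence that miR-10a-5p begins with, so it falls outside the seed family, and it reached 17.8, 16.2, 16.1 and 5.17 RPM. The entries are printed to show the shift.
miR-10a-5p: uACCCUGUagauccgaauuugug
miR-10b: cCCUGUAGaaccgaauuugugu
Whether reads that begin 2 bases earlier were counted on miR-10b was not tested.

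The miR-192 family, miR-192 with miR-215, took 2.87%, 2.26%, 2.24% and 6.70% of the reads, and miR-192 was 99.96% of it. The let-7 family had the most members, 8 with miR-98, and took 4.08%, 3.31%, 3.62% and 2.31%. let-7f supplied 61.2% of its reads, followed by let-7i (mean 4067 RPM) and let-7c (3473 RPM). The let-7 share was lowest in rat 4 and the miR-192 share highest. miR-101a with miR-101b (3.18% ± 0.57), miR-21 (3.01% ± 0.39), miR-30d (1.61% ± 0.11) and miR-103 with miR-107 (1.58% ± 0.40) completed the 10. miR-30d stands among them on its own because its seed was not settled, and by its name it belongs to the miR-30 family. miR-103 made up 98.5% of the last family and miR-107 averaged 231.6 RPM.

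Some members of these families differ by a single base, which limits what the counts can separate. Among the members with a sequence, 30 pairs (39 miRNAs) differed by at most 2 edits and 17 of them by 1. miR-30a and miR-30e differ by C13U, let-7f and let-7a by A12G, miR-101a and miR-101b by A16G and miR-103 and miR-107 by G22C, counted from 1 at the 5′ end with the base of the first-named miRNA first. How reads that match more than one of them were assigned is not given in the sources used here, so the split within such pairs is uncertain. Whether a read was counted on more than one member, which would raise the family sum, was not tested.

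The labelled tissue was checked against lists of cell type markers. All 9 miRNAs of the kidney tubule list were among the 321, at a summed 220260, 192088, 212935 and 250873 RPM (mean 21.9% of the reads), led by miR-30a and miR-30e. Most of this sum was that of the 5 miR-30 members, with a mean of 18.2% of the reads, and no other tissue was compared. miR-194, one copy of which lies beside miR-192, was at 1926 to 2161 RPM, whereas miR-204 averaged 28.0 RPM and miR-215 14.3 RPM. All 8 of the epithelium list were present, at 11367 to 15508 RPM in sum, led by miR-182 (3043 to 4492 RPM) and miR-200b (2546 to 4503 RPM). Of the 6 miRNAs of the Hox clusters, 5 were present, with miR-10a-5p far above miR-196b (208 to 326 RPM), and miR-615 stayed under the limit.

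Of the vessel markers, miR-143 was far above the rest. miR-143 and miR-145, the smooth muscle list, summed to 161020 to 219770 RPM, nearly all of it miR-143, since miR-145 was at 495, 593, 653 and 382 RPM. The endothelial list was at 8432 to 9771 RPM, with miR-126 at 6008 to 8329 RPM and miR-126*, from the other arm, at 1442 to 2424 RPM. Fibroblast miRNAs were at 413 to 486 RPM in sum, led by miR-199a-3p (261 to 339 RPM) and miR-199a-5p (99.3 to 184.8 RPM).

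Markers of blood cells were detected as well. miR-451, abundant in red cells, was at 424, 718, 678 and 500 RPM, and miR-144, from the same cluster, at 11.5 to 21.5 RPM. miR-144*, the higher arm of the miR-144 hairpin, averaged 280.8 RPM. The 6 leukocyte miRNAs in the table summed to 2205 to 3110 RPM, led by miR-146a (1084 to 1558 RPM) and miR-142-3p (680.5 to 1049 RPM), the latter a marker shared by most blood lineages. miR-223, of myeloid cells, was at 34.8 to 39.1 RPM. miR-486, miR-155 and miR-208 of these lists have no row in the table used here. The part of blood left in the tissue in these values was not tested.

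Lists of distant tissues stayed low, with exceptions. The neuronal miR-124 had 0.07, 0.07, 0 and 0.22 RPM, although miR-9 of the same list reached 234 to 384 RPM and miR-128 17.8 to 21.0 RPM. Of the striated muscle list, miR-499 was at 104 to 119 RPM and miR-1 at 17.9 to 40.1 RPM, and miR-133b did not reach the limit. The pancreatic and endocrine list summed to 966 to 1277 RPM, nearly all from miR-7a (748 to 1017 RPM) and miR-375 (186 to 258 RPM). None of the 7 germ cell miRNAs reached the limit: 4 had no count in any kidney, miR-741-3p peaked at 0.73 RPM and miR-881 at 0.15 RPM, both in rat 4. miR-122, which is the main miRNA of hepatocytes, was at 46.4 RPM in rat 1 and at 3.75, 6.12 and 4.37 RPM in rats 2, 3 and 4 (707, 55, 95 and 60 counts). This was the largest CV of all 321 miRNAs, 137.5%.

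Of 205 hairpins with both arms named in the table, 93 had both arms among the 321 miRNAs. The higher arm took a median of 97.5% of the reads of its hairpin. It took over 99% in 33 hairpins, 90% to 99% in 36 and less than 90% in 24. The 5′ arm was higher in 61 and the 3′ arm in 30 hairpins, and the side was not settled for the others. The same arm was higher in every kidney in 89 of 93, and the SD of the share over the 4 kidneys had a median of 0.53 percentage points. The hairpin of miR-378 was the most lopsided, since miR-378* had 25.7, 20.8, 24.1 and 33.6 RPM against at least 232671 RPM of miR-378 in each kidney, a share of 99.99% for the major arm. miR-191, miR-143, miR-152 and miR-192 also took at least 99.96% of their hairpins.

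In 10 hairpins the starred arm was the higher one: miR-382*, miR-28*, miR-455*, miR-582*, miR-151*, miR-221*, miR-330*, miR-144*, miR-140* and miR-423*. The largest of them was miR-140*, at a mean of 13194 RPM, against 362, 339, 371 and 263 RPM of miR-140, a share of 97.5% ± 0.37 (SD, n = 4). miR-423* took 98.2% ± 0.41, miR-144* 94.5% ± 0.93, miR-330* 90.5% ± 2.38 and miR-221* 75.9% ± 4.87. For these the name given by the earlier nomenclature does not mark the minor arm in rat kidney. The arms of miR-140 carry unlike seeds.
miR-140: cAGUGGUUuuacccuaugguag
miR-140*: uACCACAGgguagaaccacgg
In rat 3 the arms of miR-382 lay on the other side of 50%, with 49.2% for miR-382*, so that its direction was not settled.

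The most even hairpins were those of miR-382, miR-28, miR-139, miR-10b and miR-455. miR-28* and miR-28 averaged 300.2 and 284.3 RPM, and the starred arm took 52.2%, 50.9%, 51.0% and 51.4%, a narrow lead held in every kidney. The arms of miR-28 also have no seed in common.
miR-28: aAGGAGCUcacagucuauugag
miR-28*: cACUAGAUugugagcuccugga
miR-139-5p took 50.8%, 58.8%, 57.0% and 41.2% of its hairpin and miR-10b 64.2%, 61.8%, 56.3% and 35.5%. In both, rat 4 alone lay below 50%. The minor arm's median share was 2.36%, 2.37%, 2.30% and 2.82% in rats 1 to 4, and rat 4 had the highest minor-arm share in 41 of the 93 hairpins, compared with 20, 17 and 15 for rats 1 to 3.

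**Figure D3:**
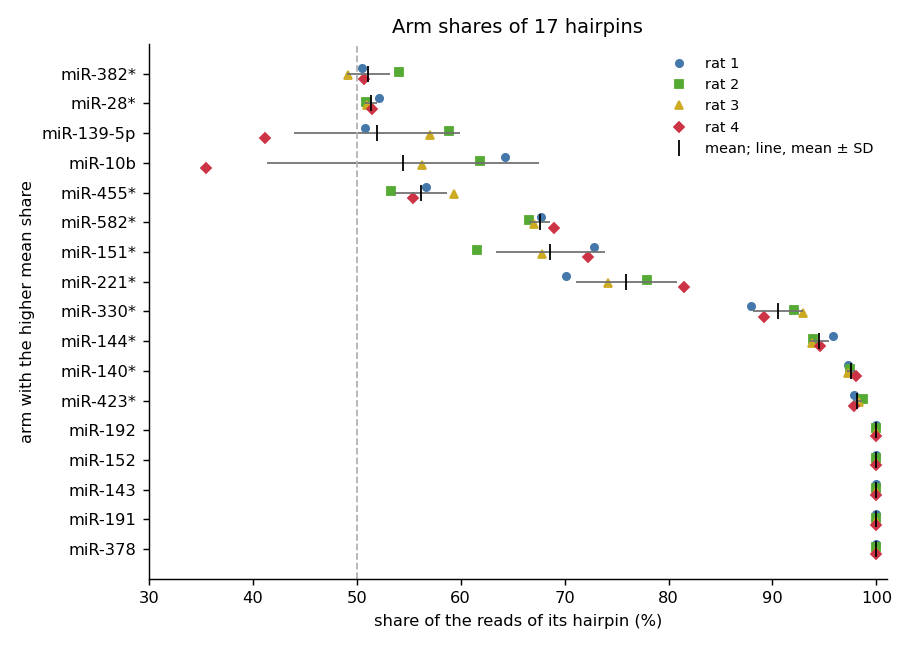
Share of the hairpin's reads (%) taken by the arm with the higher mean, for the 5 most even and 5 most lopsided hairpins and every hairpin with a higher starred arm (17 in all), with one symbol per rat, a tick at the mean and a line for the mean ± SD (n = 4), and a dashed line at 50%. Rat 4 lies below 50% for miR-139-5p (41.2%) and miR-10b (35.5%), while miR-378, miR-191, miR-143, miR-152 and miR-192 lie at 99.96% or more.

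Summed over the kidney, 3′ arms took 57.3% ± 3.17 of the reads and 5′ arms 42.2% ± 3.16. The 3′ arms did not lead without miR-378, when they took 41.7% ± 3.50 and the 5′ arms 57.6% ± 3.43. miR-143, also a 3′ arm, took 18.5% of the reads, and the shares without it were not computed. A first base of U was found in 122 of the 280 matched miRNAs (43.6%) and in 63.6% ± 4.20 of their reads. Mature lengths of 21, 22 and 23 bases took 37.6%, 48.0% and 13.9% of the matched reads. Among the miRNAs, 74 are listed with fewer than 22 bases, at a median of 16.8 RPM, and 206 with 22 or more, at 37.0 RPM. The labels give a gel cut of 22 to 30 bases for these libraries, and its part in the difference between lengths was not tested.

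The levels of neighbouring hairpins ranged from nearly equal to far apart. Grouping copies within 10000 bases of each other in GRCr8 gave 32 clusters with at least 2 members. This grouping is incomplete, since it left out some neighbours at that distance, such as miR-15b with miR-16, let-7b with let-7c and miR-199a with miR-214. miR-181d and miR-181c, which are neighbours, averaged 88.8 and 84.6 RPM. In the cluster of miR-143 and miR-145, which spans 1471 bases, miR-143 averaged 184954 RPM and miR-145 530.7 RPM. In that of miR-192 and miR-194, which spans 295 bases, the means were 35143 RPM (24528 RPM without rat 4) and 2041 RPM, although miR-194 has another copy beside miR-215. The cluster with the most members, led by miR-379, is the large imprinted cluster known from placenta and brain. The grouping gave it 19 members from 15 of 31 hairpins, and these summed to 206.6 RPM ± 19.4 (SD, n = 4). miR-376b-5p and miR-485, which lie between its hairpins, are missing from this count and sum. The miR-17 cluster, known for its role in proliferation, had members from all 6 hairpins and summed to 1374, 1235, 1547 and 827 RPM. Of its members, miR-17-5p, miR-19b and miR-92a (means of 326.6, 114.5 and 333.4 RPM) have another copy in a cluster on chromosome X, and their reads cannot be assigned to either cluster.

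The spread between kidneys was larger than counting error for most miRNAs. The median CV over the 321 miRNAs was 19.6% (quartiles 14.1% and 26.7%), while counting alone would give a median of 5.04%. The 3 miRNAs above 100000 RPM, miR-378, miR-143 and miR-30a, had a median CV of 9.12% (6.33% to 13.4%). The median CV was 18.0% at 10000 to 100000 RPM, 17.5% at 1000 to 10000 RPM, 18.6% at 100 to 1000 RPM and 19.0% at 10 to 100 RPM. At 1 to 10 RPM it was 22.7%, where counting gives 13.7%, and for the 4 miRNAs under 1 RPM counting alone gives 26.7%, more than their 22.0%. The common dispersion of edgeR corresponded to a biological CV of 25.8% with 4 kidneys and 15.6% without rat 4. Without rat 4 the median CV of the 321 miRNAs was 12.1%. By class it was then 9.18% above 100000 RPM, 8.48% at 10000 to 100000 RPM, 11.8% at 1000 to 10000 RPM, 9.73% at 100 to 1000 RPM, 11.5% at 10 to 100 RPM and 16.03% at 1 to 10 RPM, so that the class above 100000 RPM no longer had the lowest median. The scaling mattered for this class, which holds most of the reads, since its median CV was 14.1% under median-of-ratios and 15.4% under TMM with 4 kidneys. Other classes moved too. The class at 10000 to 100000 RPM then had the lowest median, 12.9% under median-of-ratios and 11.5% under TMM. At 100 to 1000 RPM the median was 14.8% and 13.5%. PCR reads are not independent molecules, so the counting values are lower limits for sampling error.

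**Figure D4:**
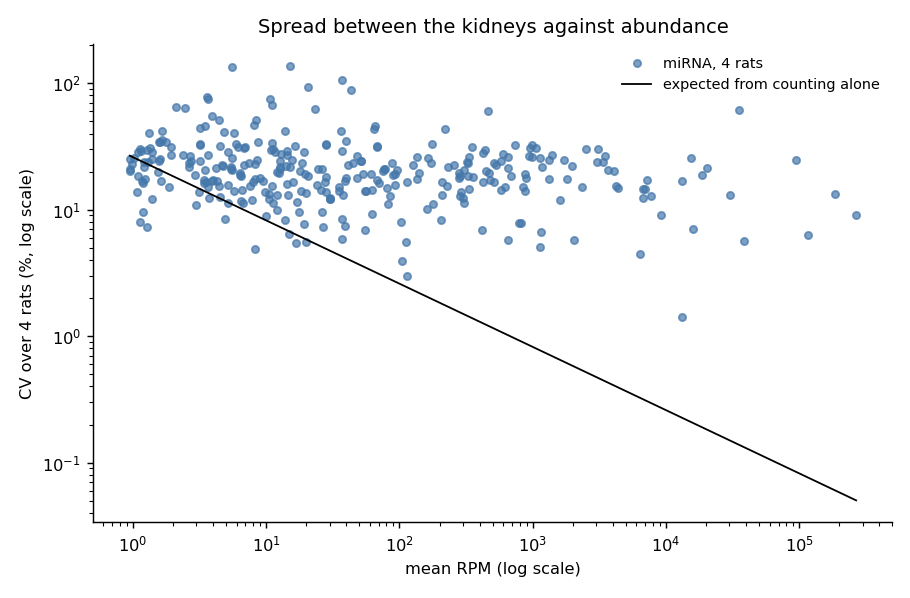
CV over the 4 rats (%, log scale) against mean RPM (log scale), with one point per miRNA (n = 321) and a line for the CV expected from counting alone. The median of all points is 19.6%, that of the 3 miRNAs above 100000 RPM is 9.12%, and the counting line falls with abundance from 26.7%, its median for the miRNAs under 1 RPM, and the low point at 13194 RPM is miR-140*, with 1.43% on this scale.

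Among the 109 miRNAs of at least 100 RPM, the lowest CVs on the RPM scale were those of miR-140*, miR-22* (109.8 to 117.1 RPM, CV 2.97%), miR-450a (99.9 to 109.5 RPM, 3.94%), miR-148b-3p (6155 to 6764 RPM, 4.46%) and miR-26b (1098 to 1216 RPM, 5.05%). miR-499, miR-30e, miR-194, miR-542-3p and miR-30a followed, with CVs of 5.60% to 6.33%. These ranks depended on the scaling. Of the 10, 3 were among the 10 steadiest under median-of-ratios and 0 under TMM, where their CVs were 8.49% to 14.7%. miR-22 had the lowest CV under median-of-ratios (2.61%, and 6.66% on the RPM scale), and miR-181b under TMM (2.98%, and 11.1% on the RPM scale). The least steady on the RPM scale, 8 of which were among the 10 least steady under either of the other scalings, were miR-192 (60.98%), miR-30c-2* (59.9%), miR-218 (43.1%), miR-98 (33.2%), miR-151* (32.4%), miR-23a (32.3%), miR-320 (31.5%), miR-3545-3p (30.8%), miR-27a (30.5%) and miR-27b (30.2%). Rat 4 was the highest or lowest kidney in each of these 10, and without it their CVs were 2.0% to 19.9%. miR-27b, for example, was at 2583, 2661 and 2683 RPM in rats 1 to 3 and at 4523 RPM in rat 4. A ratio of more than 2 between the highest and the lowest kidney was found in 56 of the 321 miRNAs (17.4%), and in 14 among rats 1 to 3.

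Of the 30 miRNAs that differed by more than 2-fold in rat 4, 21 were higher and 9 lower. With median-of-ratios scaling the split was 21 and 4, and with TMM it was 30 and 3, since rat 4 had a median log2 ratio of -0.11 on the RPM scale, 0.02 with median-of-ratios and 0.13 with TMM. The 5 with the highest ratios were miR-874 (1.77, 1.77, 1.93 and 16.5 RPM), miR-328a (21.4, 13.3, 18.1 and 95.0 RPM), miR-210 (25.4, 19.2, 27.7 and 100.5 RPM), let-7i* (1.31, 2.04, 3.48 and 7.57 RPM) and miR-29b-2* (2.43, 1.98, 2.51 and 7.86 RPM). miR-210 is known as a miRNA induced by low oxygen. The 5 with the lowest ratios were miR-10b, miR-219-2-3p (13.4, 6.88, 9.92 and 3.35 RPM), miR-32* (2.49, 1.64, 1.74 and 0.80 RPM), miR-122 and miR-674-5p (8.20, 7.77, 8.18 and 3.71 RPM). These were chosen for the gap and are a description, with no test. The low ratio of miR-122 came from rat 1, since rat 4 lay between rats 2 and 3.

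miR-192 and its other arm were both highest in rat 4, with miR-192* at 5.90, 5.93, 8.24 and 22.5 RPM, whereas miR-194 was at 2120, 1956, 1926 and 2161 RPM. The starred arms of the miR-30 hairpins were also highest there. miR-30c-2* stood at 333, 261, 376 and 864 RPM, while miR-30c, from the other arm, was at 8316, 8863, 10291 and 9024 RPM. The log2 ratio of rat 4 to the geometric mean of the other 3 kidneys had the same sign for both arms in 55 of the 93 hairpins. Across these hairpins the ratios of the arms had a Pearson correlation of 0.23, given as a description. Some signs match without any link between the arms, and that share was not computed.

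The shift of rat 4 went with base composition. The correlation across miRNAs between the log2 ratio of a rat to the others and the share of G and C in the mature sequence was 0.38 for rat 4 and -0.21, -0.16 and -0.29 for rats 1 to 3 (Pearson, n = 280 miRNAs that share their libraries, given as a description). In rat 4 the median log2 ratio was -0.47 for the 32 miRNAs with under 36% of G and C, -0.28 for the 114 with 36% to 46%, 0.17 for the 88 with 46% to 55% and 0.27 for the 46 with 55% or more. The ratios of the 4 rats are not independent, since each rat is among the others of the remaining 3. miR-874 and miR-210, the 2 matched members with the highest ratios in rat 4, are shown here.
miR-874: cUGCCCUGgcccgagggaccga
miR-210: cUGUGCGUgugacagcggcuga
The mature miR-874 holds 77.3% and miR-210 63.6% of G and C. let-7f holds 31.8% and was not among the miRNAs named for the lowest ratios in rat 4. Of those, miR-10b, the lowest, holds 45.5% and lies with miR-219-2-3p and miR-122 in the class of 36% to 46%. miR-32* lies in the class under 36%, whereas miR-674-5p lies in that of 46% to 55%, whose median was 0.17. The lowest ratios therefore did not all go with a low share of G and C. The part of base composition, ligation or amplification in the values of rat 4 was not tested.

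**Figure D5:**
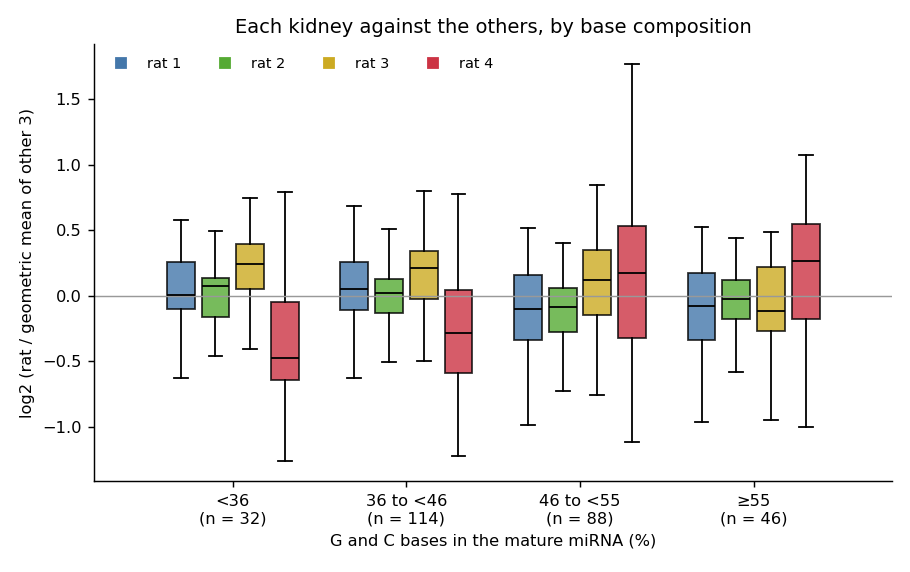
log2 ratio of each rat to the geometric mean of the other 3, for 280 miRNAs in 4 classes of G and C content (32, 114, 88 and 46 miRNAs), with boxes from the first to the third quartile, a line at the median, whiskers to the last value within 1.5 box lengths and farther points not drawn. The medians of rat 4 run from -0.47 in the lowest class to 0.27 in the highest, and those of rat 3 from 0.24 to -0.12.

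The limit of 10 counts lay among miRNAs of about 1 RPM. Just inside it were miR-34c* (24, 23, 24 and 10 counts in rats 1 to 4), mir-185* (26, 10, 17 and 25), miR-329 (10, 16, 16 and 16), miR-342-5p (15, 10, 15 and 16) and miR-1224 (17, 17, 10 and 12). Just outside were miR-130a* (28, 20, 41 and 9), miR-224 (16, 33, 32 and 9), miR-383 (24, 18, 18 and 9), miR-338* (25, 16, 18 and 9) and miR-425* (16, 9, 17 and 20). For 4 of these 5 it was rat 4, the kidney with the smallest library (13736874 counts), that held the low count. Over all listed miRNAs, 359, 360, 367 and 349 had at least 10 counts in rats 1, 2, 3 and 4. In all, 73 miRNAs reached 10 counts in some kidneys but not in every one.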

How the data were processed

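Small RNA of the kidneys was sequenced with 1 library per rat (Illumina small RNA v1.5 protocol, Genome Analyzer II). The authors masked adaptors, removed contaminated reads, grouped identical reads and counted them on the rat miRNAs of miRBase 16 with miRanalyzer at its default settings; the submitters' processing notes name CASAVA 1.7. The deposited values are whole-number read counts per miRNA and rat, without normalization. The genome build and the rule for reads matching several miRNAs are not given in the sources used here.

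Counts of the 4 control rats, grouped by the sample labels, were divided by library totals (13736874 to 15525397) and multiplied by 1000000 (RPM). CVs were set against counting error alone. The control kidneys were compared with no other group, and an exact two-sided sign-flip permutation over 4 rats, which cannot pass 0.05, was the design for the order of miRNAs. Single kidneys far from the others were marked by Dixon's rule. Median-of-ratios factors, TMM and the common dispersion came from numpy 2.4.6 and edgeR 4.0.16 in R 4.3.3. Python 3.11.15, pandas 2.3.3 and matplotlib 3.10.9 were used, and the CV and dispersion steps were tested on simulated data.

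Sequences, positions and neighbouring genes were taken from RefSeq tables of GRCr8. Arms were assigned by name through a hand-written table, and 41 of the 321 miRNAs, miR-30d among them, were left without a sequence. The members, lists, base composition classes and tests were chosen with earlier results of these data known. The miRNAs named were the 20 most abundant, the highest of each marker list, the 10 largest families with their leading members, the 5 most even and 5 most lopsided hairpins and those with a higher starred arm, the 10 steadiest and 10 least steady of at least 100 RPM, the 5 nearest the limit on each side, and the 5 highest and 5 lowest of rat 4. Others were named after their values were seen, such as miR-192*, miR-30c-2* and members of marker lists. Alternatives changed the count minimum, the scaling, the average, the total, the family and arm rules, and left out each rat in turn. The other scalings for the CVs of single miRNAs and abundance classes, the class CVs without rat 4 and the arm shares without miR-378 were added after seeing the data.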

Additional observations from a re-analysis of the deposited data

Results flagged for a closer look

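For 115 values with 4 kidneys each, the gap between the most extreme kidney and its nearest neighbour was compared with the whole range by Dixon's rule. A total of 16 exceeded it, and in 14 of the 16 the kidney was that of rat 4. Chance flags about 1 in 20 independent groups, but that rate does not apply to these values, since they share libraries and many were chosen for their spread or gap. Of the 10 miRNAs named for their gap in rat 4, 7 were among the 16, and miR-192, miR-27a, miR-27b and miR-218 were named for a high CV.

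The kidney of rat 4 was the highest for miR-192 (66986 RPM), miR-24 (9001 RPM), miR-27b (4523 RPM), miR-27a (1382 RPM), miR-26b (1216 RPM), miR-218 (362.1 RPM), miR-210 (100.5 RPM), miR-328a (95.0 RPM), miR-874 (16.5 RPM) and miR-29b-2* (7.86 RPM), and for the seed family of miR-192 (6.70% of the reads). It was the lowest for miR-10b (5.17 RPM), miR-674-5p (3.71 RPM) and the share of miR-191 in its hairpin (99.97%). miR-24, miR-27a and miR-27b come from the same pair of clusters. Rats 1 to 3 lay close together for them, at 6480 to 6619 RPM for miR-24 and 790 to 825 RPM for miR-27a.

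The kidney of rat 1 was the highest for miR-122 (46.4 RPM) and the lowest for the share of miR-152 in its hairpin (99.97%). For the arm shares of miR-191 and miR-152 the gap was under 0.02 percentage points.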

How the results depend on the processing

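No paired analysis was possible because only the control group was used and its results come from no test between groups. The number of miRNAs was 454 with at least 1 count in each kidney, 394 with 10 counts in at least 1 kidney, 363 with a mean of 10 and 211 with at least 100 counts in each kidney (325 to 337 leaving out a rat, and 337 without rat 4). The same 20 miRNAs led under all 9 alternatives. The share of the 10 most abundant fell to 77.9% without miR-378 and was 82.2% to 82.8% leaving out a rat. The 10 largest families took 88.7% when grouped by name, and 87.1% to 87.5% leaving out a rat. The median share of the higher arm was 98.0% with no minimum and 98.8% with 100 counts for both arms together, over 193 and 133 hairpins, and 97.6% to 97.9% leaving out a rat. The median CV was 24.1% with at least 1 count in each kidney and 12.2% to 21.7% leaving out a rat, the lowest without rat 4. With 100 counts in each kidney, which leaves 211 miRNAs, 12 instead of 30 differed by more than 2-fold in rat 4 (23 to 32 leaving out another rat, and rat 4 itself cannot be left out). The summed tubule list was 208427 to 228022 RPM leaving out a rat. Apart from the smaller set of miRNAs or hairpins, the cause of these changes was not tested. All 258 alternatives for the levels of single miRNAs, the number needed for 90% and the other lists stayed within 1 SD or 1.5 times, which for a mean of 4 holds by construction when a rat is left out. By ratio, 2 of them moved by over 1.5 times: the liver list, which is miR-122 alone, from 15.1 to 4.74 RPM without rat 1, and the germ cell list from 0.30 to 0.11 RPM without rat 4. Depth limits the miRNAs under about 10 RPM, for which counting error approaches the spread between kidneys.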

Other observations

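Among the miRNAs outside the 321, the highest mean was that of let-7f-1*, with 186, 194, 1 and 342 counts in rats 1 to 4. miR-1249 had 6, 17, 7 and 224 counts and miR-7b 8, 7, 7 and 43, so that both were counted mainly in rat 4, whereas let-7e* had 58, 76, 83 and 4. Each of these missed the limit in 1 to 3 kidneys and was above it in the others. They were chosen after their values were seen.

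The rows of miR-3585-5p (44, 25, 45 and 41 counts) and miR-193* (44, 26, 45 and 41 counts) were equal within 1 count in every kidney. Whether the same reads were counted on both was not tested.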
